A study of Arabidopsis thaliana with 24 samples.

Results

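The comparison is the last step of a time course of detached leaves of the Arabidopsis thaliana mutant coi1-2, 12 h against 8 h after detachment. It rests on the 4 coi1 libraries that the labels place at these times, 2 at each time, of 24 libraries in all, and on every gene of the table, of which 19323 of 37686 loci reached the level needed for a test. COI1 is the F-box protein that binds jasmonate together with JAZ repressors and sends the repressors for degradation, so a plant without its function lacks most jasmonate responses. Per the labels, seedlings of Col-0 wild type (WT) and of coi1-2 were raised for 12 d in long days (16 h of light, 8 h of dark) at 22 °C on MS medium to which 1% sucrose had been added. The first rosette leaf pair was then cut off at the base of the blade, laid on B5 medium that held no sucrose, and kept in constant light until the whole explants were frozen, which is a system for root regeneration from leaves. The labels name no added hormone. The WT libraries matched to a label, 1 per time, came from a separately deposited table, so WT levels at 8 h and 12 h stand beside the coi1 levels as descriptions with no test.

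Anthocyanins are red and purple flavonoid pigments of the vacuole. Early enzymes (chalcone synthase, chalcone isomerase, flavanone 3-hydroxylase) make dihydroflavonols, late enzymes (DFR, LDOX) turn these into anthocyanidins, and transferases add sugars and acyl groups before the pigment enters the vacuole. In Arabidopsis the late genes are switched on by a complex of a MYB protein such as PAP1 or PAP2, a bHLH protein such as TT8, GL3 or EGL3, and the WD40 protein TTG1, and JAZ proteins can bind the MYB and bHLH members and hold the complex inactive. MYB11, MYB12 and MYB111 act on the early genes and on flavonol synthesis.

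Some libraries stood apart or close together in ways that bear on what follows. On the log2(TPM + 1) scale over the genes tested, the 8 h library of replicate 2 correlated with the 12 h library of replicate 1 at r = 0.983, with its own partner at 8 h at 0.981, and the 12 h pair with each other at 0.982. The root mean square difference within a pair was 0.405 log2 units for 8 h and 0.389 for 12 h, and reached 1.05 for 30 min, where the clock gene CCA1 was at 0.72 and 154.21 TPM in the pair. The WT library labelled 2 h correlated with the WT libraries of 12 h at 0.987 and of 8 h at 0.975, against 0.840 with that of 1 h and 0.912 with that of 4 h. It is used in no comparison here. Values are TPM, transcript abundances scaled to one sum in every library, so read depth and counting error cannot be read from them. In the 4 libraries between 17634 and 17840 loci reached 1 TPM. The jasmonate-induced storage protein gene VSP2 lay between 0.69 and 0.96 TPM in the 4 coi1 libraries and at 564.69 and 136.47 TPM in WT at 8 h and 12 h. COI1 itself lay between 21.52 and 23.29 TPM in coi1 and at 22.55 and 23.74 TPM in WT, so its RNA level does not separate the genotypes. Of 6 root tissue markers, 2 (CASP1 and PHO1) reached the level for a test, and EXPA7 and IRT1 were listed at 0 in all 4 coi1 libraries. The 6 summed to 4.37 and 4.51 TPM at 8 h and to 5.03 and 5.13 TPM at 12 h. None of 5 shoot meristem markers reached the level for a test.

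Among called genes, a boron transporter gene, 2 cellulose synthase-like genes and late anthocyanin enzymes rose most between 8 h and 12 h in coi1. The 4 flavonoid regulators called rose by less. At a Benjamini-Hochberg adjusted p below 0.05 (limma, on log2(TPM + 1), with the spread of each gene estimated over 16 coi1 libraries), 24 of 19323 genes changed, which is 0.124%. Of these, 21 rose (0.109%) and 3 fell (0.0155%). Of the 31 members of the flavonoid lists, 10 were among the 21 genes that rose. That count includes 5MAT, TT8, MYB12, DFR and UF3GT, which are limited as described next. Of the 24 genes, 8 reached 1 TPM in no coi1 library but those of 12 h (5MAT, TT8, MYB12, RALFL32, FRD3, AT1G23110, AT4G09275 and AT5G48650). They entered the test only through the group in which they were high and took their spread largely from libraries near 0, so their p-values are given as a description and support nothing. Outside 12 h, DFR reached 1 TPM only in t0 replicate 1 (2.53 TPM) and UF3GT only in 8 h replicate 2 (1.13 TPM). A test needed at least 1 TPM in at least 2 libraries, so DFR and UF3GT also passed this filter only through the 12 h libraries. Their p-values carry the same limit. PAP2, LDOX and CSLA10 passed the filter otherwise. They too took their spread largely from libraries near 0, so their p-values are also given as a description. In whole explants, more cells with a transcript and more transcript per cell cannot be told apart. Age of the explant is also tied to the time of day, to time in constant light and to time without sucrose, and these cannot be told apart. The count depended on single libraries: it was 10 without 8 h replicate 1, 81 without 8 h replicate 2, 55 without 12 h replicate 1, 3 without 12 h replicate 2, and 60 or 58 without 30 min replicate 1 or 2. With only the 4 libraries compared, the 24 genes had adjusted p of 0.156 to 0.204 and 1 other gene was called, and over all alternatives tried the adjusted p of the 24 genes ran from 2.89e-08 to 0.845.

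**Figure D1:**
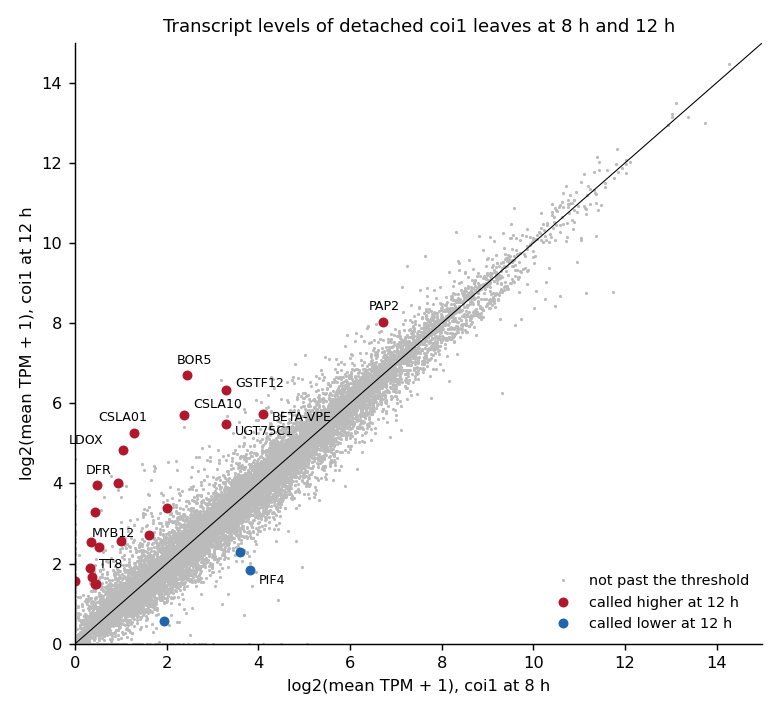
Mean level of each of 19323 genes in coi1 leaves at 8 h (horizontal axis) and 12 h (vertical axis), both as log2(mean TPM + 1), with the line of equal levels. The 21 genes called higher (red) lie above the line at varying distances, most of them at low levels at 8 h, and the 3 called lower (blue) include PIF4. Some genes not called, such as LHY, lie further from the line than some called genes.

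The 6 bases CACGTG, known as the G-box core and bound by bHLH and bZIP proteins in plants, occurred in the 200 bases before the annotated start of 8 of the 21 genes that rose, or 38.1%. They occurred in 6.29% of the 19249 promoters of tested genes for which this window could be read. Among the 8 genes, MYB12, AT5G48650, DFR and UF3GT passed the filter only through the 12 h libraries, which limits this comparison of shares. The other motifs searched, on both strands and each scored separately, were AAAATATCT (the evening element; 2.08% of all promoters, 0 of 21), GATAAG (10.1%, 1 of 21), AAACCCTA (2.91%, 0 of 21) and GGCCCA (15.9%, 2 of 21). None of the 5 motifs occurred before the 3 genes that fell. A match describes the letters only. From the RefSeq sequence of TAIR10.1, the windows of 6 of the 8 genes are printed 5′ to 3′ on the strand of the gene. The windows have every match to a searched motif in capitals. They lie at chr5:17166033-17166232 (DFR, minus strand), chr5:21938397-21938596 (UF3GT, minus), chr2:19476126-19476325 (MYB12, plus), chr1:24763741-24763940 (PAP2, plus), chr1:28107622-28107821 (BOR5, plus) and chr1:8519985-8520184 (CSLA10, minus).
DFR: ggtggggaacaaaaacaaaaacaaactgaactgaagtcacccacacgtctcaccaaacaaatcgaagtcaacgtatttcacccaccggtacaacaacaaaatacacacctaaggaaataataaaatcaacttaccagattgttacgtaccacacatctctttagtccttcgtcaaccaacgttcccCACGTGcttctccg
UF3GT: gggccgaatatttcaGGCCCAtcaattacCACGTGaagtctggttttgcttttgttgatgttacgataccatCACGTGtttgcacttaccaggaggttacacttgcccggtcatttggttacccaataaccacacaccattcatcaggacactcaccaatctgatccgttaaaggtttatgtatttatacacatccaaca
MYB12: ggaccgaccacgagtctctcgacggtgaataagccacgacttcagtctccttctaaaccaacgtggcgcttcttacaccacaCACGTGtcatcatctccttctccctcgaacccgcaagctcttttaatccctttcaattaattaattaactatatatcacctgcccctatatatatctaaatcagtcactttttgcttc
PAP2: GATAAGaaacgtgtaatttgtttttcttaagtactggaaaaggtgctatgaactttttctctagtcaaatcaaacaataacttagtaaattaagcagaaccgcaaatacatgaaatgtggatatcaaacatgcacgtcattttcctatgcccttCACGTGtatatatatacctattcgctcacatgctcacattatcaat
BOR5: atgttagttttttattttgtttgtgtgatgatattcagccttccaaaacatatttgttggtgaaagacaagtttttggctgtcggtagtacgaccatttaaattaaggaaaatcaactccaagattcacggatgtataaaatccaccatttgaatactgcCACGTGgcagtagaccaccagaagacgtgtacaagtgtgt
CSLA10: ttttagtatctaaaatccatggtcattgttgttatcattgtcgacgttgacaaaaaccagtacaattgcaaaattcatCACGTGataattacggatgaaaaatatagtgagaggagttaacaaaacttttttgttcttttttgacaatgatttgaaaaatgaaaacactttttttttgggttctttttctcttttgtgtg
UF3GT held CACGTG at 2 places in its window and also GGCCCA, and PAP2 also held GATAAG. The other genes that rose and held CACGTG were MBP1 and AT5G48650. LDOX, GSTF12, UGT75C1, 5MAT, TT8 and CSLA01 held none of the 5 motifs in this window.

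The late anthocyanin enzymes were the list with most calls. LDOX (AT4G22880), the dioxygenase that makes anthocyanidins, was at 1.25 and 0.87 TPM at 8 h and at 17.69 and 37.57 TPM at 12 h. DFR (AT5G42800), the reductase before it, was at 0.40 and 0.38 TPM at 8 h and at 8.37 and 20.85 TPM at 12 h. For both genes each 12 h library lay above each 8 h library, and replicate 2 was the higher of the 12 h pair. LDOX rose by 3.71 ± 0.37 on the log2(TPM + 1) scale (SE; limma, adjusted p = 0.00477) and DFR by 3.36 ± 0.44 (limma, adjusted p = 0.0217). Such changes are on the log2(TPM + 1) scale throughout and understate the change of genes at low levels. In the 12 coi1 libraries from t0 to 4 h neither gene exceeded 2.53 TPM, the level of DFR in t0 replicate 1. The spread of both genes was thus taken largely from libraries near 0, which limits their p-values.

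Genes for the decoration and transport of the pigment also rose. UF3GT (AT5G54060), which adds xylose to anthocyanins, went from 0.70 and 1.13 TPM at 8 h to 10.31 and 20.04 TPM at 12 h, a rise of 3.02 ± 0.26 (SE; limma, adjusted p = 0.00201). GSTF12 (AT5G17220, also TT19), the glutathione transferase needed for anthocyanin to reach the vacuole, was at 6.87 and 10.83 TPM at 8 h and at 53.49 and 105.38 TPM at 12 h. UGT75C1 (AT4G14090), the anthocyanin 5-O-glucosyltransferase, was at 7.86 and 9.74 TPM at 8 h and at 33.61 and 53.49 TPM at 12 h. The malonyltransferase gene 5MAT (AT3G29590) was the lowest of the group, with 0.23 and 0.30 TPM at 8 h and 3.16 and 6.53 TPM at 12 h. These last genes rose by 2.98 ± 0.43 (adjusted p = 0.0372), 2.15 ± 0.25 (0.0103) and 2.15 ± 0.23 (0.0101) respectively (SE; limma). In all 4 of these genes the libraries of the times did not overlap.

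Of the 9 genes on the late anthocyanin list, 6 rose and none fell, and the list's median change was 2.84, against 0.0094 over all genes tested. Of these 6, 5MAT, DFR and UF3GT passed the filter only through the 12 h libraries. All 9 had both 12 h libraries above both 8 h libraries, as 27.1% of all genes did, and 8 of the 9 did so with a log2 change of at least 1, as 1.69% of all genes did. Of the other members, SCPL10, the anthocyanin sinapoyltransferase, was at 6.21 and 10.31 TPM at 8 h and at 46.32 and 87.65 TPM at 12 h (2.84 ± 0.97, limma, adjusted p = 0.284). The rest were UGT78D2 (1.14 ± 0.52), which serves anthocyanins and flavonols, and the flavonol glycosyltransferase UGT78D1 (0.71 ± 0.46). The number of late genes called was 2 without 8 h replicate 1 and 1 without 12 h replicate 2, and 5 or 6 without any other single library tried. It was 2 with a pseudocount of 0.1 in place of 1.

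**Figure D2:**
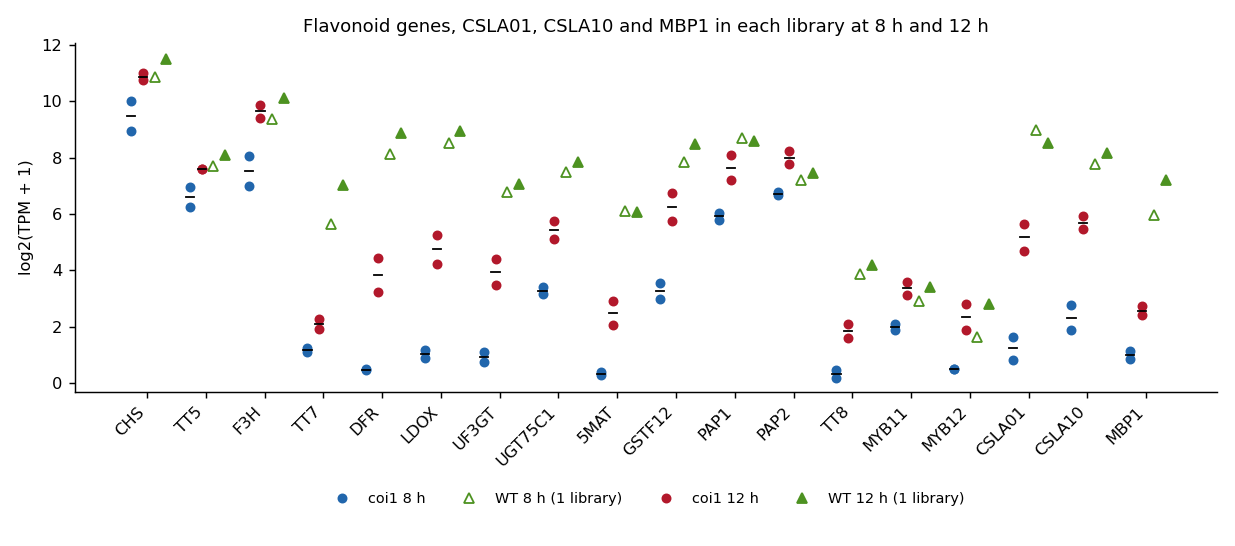
Level of each gene in every library at 8 h and 12 h, as log2(TPM + 1): circles are the 2 coi1 libraries per time with a bar at their mean, triangles the single WT library per time. Late anthocyanin genes of coi1 lie near 0 to 3.6 at 8 h and move toward, but stay below, the WT levels at 12 h, while PAP2 of coi1 lies below its WT level at 8 h and above it at 12 h.

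Early flavonoid enzymes were already abundant at 8 h. CHS (AT5G13930), chalcone synthase, was at 489.61 and 1034.99 TPM at 8 h and at 1731.30 and 2046.32 TPM at 12 h. F3H (AT3G51240), flavanone 3-hydroxylase, was at 126.80 and 268.37 TPM and then at 681.44 and 941.39 TPM. The pairs did not overlap, yet the replicates at 8 h differed about as widely as the nearer libraries of the times did. The errors given next come from the spread over all 16 coi1 libraries, not from the 8 h and 12 h pairs alone. None of the 6 early genes passed the threshold: CHS had a change of 1.40 ± 1.29 (SE; limma, adjusted p = 0.804) and F3H of 2.11 ± 0.97 (adjusted p = 0.443). All 6 had both 12 h libraries above both 8 h libraries, as 27.1% of all genes did, with a median change of 1.12 and a range from 0.80 to 2.11. TT7, the flavonoid 3'-hydroxylase that sets the hydroxylation of the pigment, stayed low with 1.16 and 1.37 TPM at 8 h and 2.81 and 3.84 TPM at 12 h, while the WT libraries had 48.93 and 130.05 TPM. Upstream, the phenylpropanoid entry gene PAL1 was at 239.88 and 418.36 TPM and then at 626.46 and 810.24 TPM (1.17 ± 0.52, adjusted p = 0.427). On that list of 16 genes none was called, and 8 had both 12 h libraries above both 8 h libraries, against 27.1% of all genes. SNG1, the sinapoylmalate synthase gene of that list, went the other way, at 14.06 and 15.22 TPM at 8 h and 5.56 and 5.89 TPM at 12 h, and did not pass (-1.22 ± 0.27, adjusted p = 0.134). SNG1 was called with the 30 min replicates left out one at a time, with t0 and 30 min both left out, and with only the 6 libraries of 4 h, 8 h and 12 h; over the alternatives its adjusted p ran from 0.0135 to 1.

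The regulators reached their levels at different times. PAP2 (MYB90, AT1G66390) did not exceed 0.65 TPM in the 12 coi1 libraries up to 4 h and was at 102.04 and 108.02 TPM at 8 h. At 12 h it was at 298.27 and 220.42 TPM, a rise of 1.28 ± 0.18 (SE, limma, adjusted p = 0.0300). The spread behind this p-value was taken largely from the 12 libraries near 0, so it is given as a description. PAP1 (MYB75) was at 54.98 and 65.23 TPM at 8 h and at 146.54 and 271.67 TPM at 12 h, and it missed the threshold (1.72 ± 0.32, adjusted p = 0.0913). The near copies MYB113 and MYB114 were at 0.08 TPM or below in all 4 libraries, and because these genes are alike in sequence the split of reads among the 4 MYB genes is uncertain. TT8 (AT4G09820), the bHLH partner, was at 0.13 and 0.39 TPM at 8 h and at 2.03 and 3.33 TPM at 12 h (1.53 ± 0.19, adjusted p = 0.0159). Its highest level in the earlier coi1 libraries was 0.35 TPM. Thus PAP2 stood above 100 TPM at 8 h in coi1 while TT8, DFR and LDOX were at or below 1.25 TPM, and at 12 h all 4 were higher.

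The flavonol regulators MYB12 and MYB11 rose and MYB111 did not pass. MYB12 (AT2G47460) was at 0.43 TPM in both 8 h libraries and at 2.67 and 5.92 TPM at 12 h (1.82 ± 0.25, limma, adjusted p = 0.0257). MYB11 (AT3G62610) was at 2.73 and 3.28 TPM and then at 7.70 and 11.15 TPM (1.36 ± 0.18, adjusted p = 0.0217). MYB111 was the most abundant of the 3, from 56.06 and 60.08 TPM to 74.89 and 93.73 TPM (0.52 ± 0.36, adjusted p = 0.670). The WD40 gene TTG1 lay between 16.93 and 22.88 TPM in all 4 libraries and EGL3 between 1.2 and 1.58 TPM, with overlapping times. MYBL2, a repressor of the complex, was at 3.26 and 2.19 TPM and then at 1.25 and 1.00 TPM (-0.80 ± 0.46, adjusted p = 0.584). Of the 13 measured regulators 4 were called higher, TT8 and MYB12 being 2 of the 8 genes above 1 TPM at 12 h alone, and none lower, with a median of 0.52; the 4 calls became 0 without 8 h replicate 1 or without 12 h replicate 2, and 2 without 8 h replicate 2 or without 12 h replicate 1. MYB12 and TT8 fell under the minimum level, and so had no test, when 1 of the 12 h libraries was left out.

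**Figure D3:**
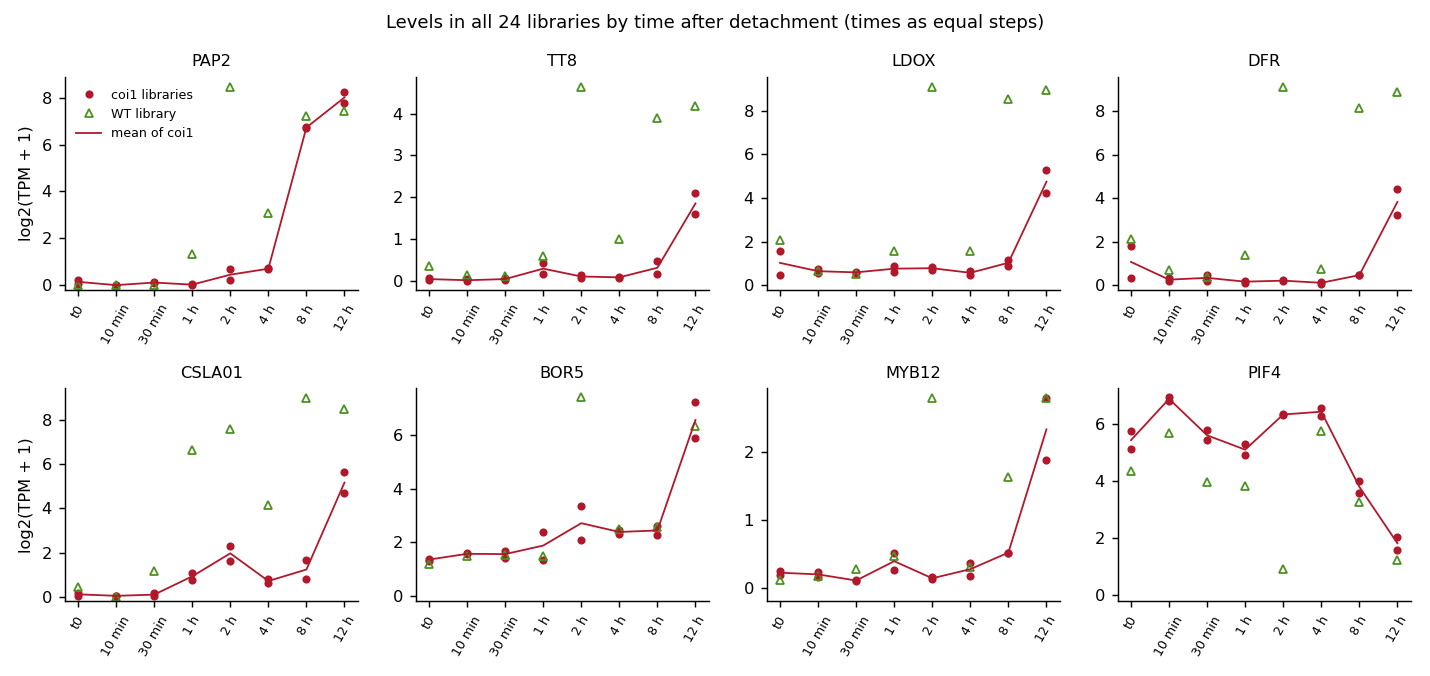
Levels of 8 genes in all 24 libraries as log2(TPM + 1) by time after detachment, with times drawn as equal steps: red circles are coi1 libraries joined by their mean, green triangles single WT libraries. In coi1, PAP2 is already high at 8 h, and TT8, LDOX, DFR, CSLA01, BOR5 and MYB12 stand above all their earlier levels at 12 h. PIF4 is lower at 8 h than at all earlier times and lower again at 12 h. The WT library labelled 2 h lies far from those of 1 h and 4 h in PAP2, TT8, LDOX and DFR.

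Of the 21 genes that rose, 11 were on none of the flavonoid lists. BOR5 (AT1G74810), a gene of the boron transporter family, was at 3.76 and 5.15 TPM at 8 h and at 57.86 and 149.10 TPM at 12 h. Its rise of 4.12 ± 0.49 (SE; limma, adjusted p = 0.0127) was the highest of the 24. CSLA01 (AT4G16590) and CSLA10 (AT1G24070) belong to the cellulose synthase-like A family, members of which make glucomannan. CSLA01 went from 0.76 and 2.14 TPM to 24.64 and 49.59 TPM (3.94 ± 0.35, adjusted p = 0.00222), and CSLA10 from 2.66 and 5.77 TPM to 43.45 and 59.39 TPM (3.38 ± 0.27, adjusted p = 0.00201). These 2 genes passed in 14 of 15 alternatives, the exception being the fit of the 4 libraries alone, where their adjusted p was 0.156, and UF3GT and LDOX passed in 13 of 15. For UF3GT, which passed the filter only through the 12 h libraries, these passes are a description. Up to 4 h LDOX and CSLA10 did not exceed 1.99 and 0.9 TPM in coi1, so their passes share the limit on the spread. MBP1 (AT1G52040), which encodes a myrosinase-binding protein, was at 0.79 and 1.23 TPM and then at 5.60 and 4.28 TPM (1.56 ± 0.18, adjusted p = 0.0103).

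The vacuolar protease gene BETA-VPE (AT1G62710) was at 17.79 and 14.39 TPM at 8 h and at 44.26 and 60.26 TPM at 12 h (1.63 ± 0.25, limma, adjusted p = 0.0453). Its highest level in the earlier coi1 libraries was 24.81 TPM (4 h replicate 1), above both 8 h libraries and below both 12 h libraries. RALFL32 (AT4G14010), for a RALF-like signalling peptide, was listed at 0 in all 12 earlier coi1 libraries and in 8 h replicate 1, and was at 0.71 TPM in 8 h replicate 2 and at 5.28 and 12.43 TPM at 12 h (2.81 ± 0.32, adjusted p = 0.0103). GH9A3, a membrane endoglucanase gene, was at 2.17 and 1.98 TPM and then at 5.23 and 5.80 TPM (1.08 ± 0.13, adjusted p = 0.0135). FRD3, for a citrate efflux transporter of the MATE family, was at 0.46 and 0.26 TPM and then at 1.51 and 2.11 TPM (1.04 ± 0.15, adjusted p = 0.0411). The remaining risers were the low-level genes AT5G48650 (1.25 ± 0.19) and AT1G23110 (1.03 ± 0.15) and the non-coding RNA gene AT4G09275, which was listed at 0 at 8 h and was at 2.07 and 1.84 TPM at 12 h. Of the 21 genes that rose, 9 were below 1 TPM in both 8 h libraries, and for 18 of 21 the 12 h library of replicate 2 was the higher.

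The 3 genes that fell included PIF4. PIF4 (AT2G43010), a bHLH factor that promotes elongation and is repressed by the evening complex of the clock, was at 15.12 and 10.96 TPM at 8 h and at 3.14 and 2.02 TPM at 12 h (-1.97 ± 0.26, SE; limma, adjusted p = 0.0205). In the 12 earlier coi1 libraries it lay between 28.74 and 121.10 TPM, so both times were below all of these. AT1G30820, annotated as a CTP synthase gene, went from 10.25 and 12.12 TPM to 4.54 and 3.2 TPM (-1.33 ± 0.20, adjusted p = 0.0453). In the earlier coi1 libraries it ran from 2.38 TPM (2 h replicate 2) to 25.94 TPM (t0 replicate 1), so its 12 h levels lay within the earlier range. AT5G66960, for a protein of the prolyl oligopeptidase family, went from 3.53 and 2.1 TPM to 0.51 and 0.46 TPM (-1.34 ± 0.19, adjusted p = 0.0300). PIF4 was the 1 called gene of the 10 measured light signalling genes. PIF5, its close relative, was at 16.01 and 12.43 TPM and then at 9.89 and 8.71 TPM (-0.56 ± 0.29, adjusted p = 0.532), and HY5 lay between 19.01 and 26.21 TPM. Without 8 h replicate 1 or 12 h replicate 2 PIF4 was not called.

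In the single WT libraries many of these genes were far above coi1 at 8 h, which was noticed after the values were seen. For 10 of the 21 genes that rose in coi1, the WT level at 8 h was at least 10 times the coi1 mean at 8 h: CSLA01, LDOX, CSLA10, DFR, UF3GT, GSTF12, UGT75C1, 5MAT, TT8 and MBP1. The share of all tested genes at this ratio was not computed. The 21 genes were also called partly for low levels in the coi1 8 h libraries that this ratio divides by, so the count describes these genes only. LDOX was at 364.42 and 488.20 TPM in WT at 8 h and 12 h, DFR at 279.72 and 475.04 TPM, UF3GT at 109.60 and 132.46 TPM and CSLA01 at 505.47 and 365.69 TPM, against coi1 means at 12 h of 27.6 ± 14.1, 14.6 ± 8.8, 15.2 ± 6.9 and 37.1 ± 17.64 TPM (SD, n = 2). TT8 was at 13.77 and 17.21 TPM in WT. The tables of the genotypes were deposited separately and these levels were not tested. PAP2 in WT was at 147.37 TPM at 8 h, above both coi1 libraries, and at 173.14 TPM at 12 h, below both.

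Most of the genes that rose in coi1 were also higher in WT at 12 h than at 8 h, 8 of the 10 just named included. BOR5 was at 4.85 TPM in WT at 8 h and at 78.45 TPM at 12 h. BETA-VPE was at 11.90 and 44.76 TPM, MYB12 at 2.1 and 5.97 TPM, RALFL32 listed at 0 and then at 5.4 TPM, and PIF4 at 8.56 and 1.34 TPM. In WT, 5 of the 21 genes that rose in coi1 were higher at 12 h by at least 1 log2 unit (BOR5, RALFL32, BETA-VPE, MBP1 and MYB12), as 1.8% of all tested genes were, and 1 of the 3 that fell (PIF4) was lower by as much, as 1.9% of all tested genes were. In direction alone, 18 of 21 were higher in WT at 12 h than at 8 h, against 58.5% of all tested genes.

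Clock genes had large differences, none of which passed. Circadian clocks of plants link morning genes such as LHY and CCA1 with evening genes such as GI, TOC1 and the evening complex. LHY (AT1G01060) was at 0.57 and 0.85 TPM at 8 h and at 9.51 and 25.20 TPM at 12 h, and its activator relative RVE8 at 0.70 and 1.59 TPM and then at 10.14 and 18.37 TPM. GI was at 23.27 and 10.84 TPM and then at 2.85 and 1.52 TPM, and PRR7 at 19.97 and 7.05 TPM and then at 2.19 and 1.28 TPM. In these 4 genes the times did not overlap, and in every case 8 h replicate 2 was nearer to 12 h than 8 h replicate 1 was. The changes were 3.28 ± 1.74 for LHY (SE; limma, adjusted p = 0.532), 2.81 ± 1.26 for RVE8 (0.433), -2.44 ± 0.79 for GI (0.264) and -2.27 ± 0.41 for PRR7 (0.0837). The fit shares the spread of a gene over all times, and with only the 6 libraries of 4 h, 8 h and 12 h LHY and RVE8 were called (adjusted p = 0.0487 and 0.0468, the lowest over the alternatives, which ran up to 1 for both). PRR7 was called without 8 h replicate 2 (adjusted p = 0.0212, over the alternatives up to 1).

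Of 13 morning genes none was called, with a median change of 0.28 and members on both sides, from -2.27 for PRR7 and -1.14 for LNK1 to 3.28 for LHY. Of 11 evening genes none was called, with a median of -0.88, and 9 had both 12 h libraries below both 8 h libraries, as 27.3% of all genes did, 5 of them with a log2 change of at most -1, as 1.23% of all genes did. TOC1 was at 54.58 and 44.00 TPM and then at 28.82 and 23.72 TPM, LUX at 38.86 and 28.74 TPM and then at 16.15 and 13.68 TPM, and ELF4 at 277.50 and 156.01 TPM and then at 76.54 and 61.88 TPM. In the WT libraries GI went from 10.98 to 1.40 TPM, PRR7 from 9.66 to 1.32 TPM and LHY from 1.73 to 35.14 TPM. Among clock outputs, GRP7, an RNA-binding protein gene of the evening, was at 4958.11 and 1922.32 TPM at 8 h and at 557.44 and 320.00 TPM at 12 h. CAT2, the morning catalase gene, was at 67.46 and 234.21 TPM and then at 587.62 and 780.92 TPM. Neither passed (limma, adjusted p = 0.712 and 0.356). The fit pools the spread of all times, and earlier pairs differed widely. At 30 min GRP7 was at 4937.42 and 20.66 TPM and CAT2 at 58.11 and 725.94 TPM. GRP7 was at 37.99 and 735.87 TPM at 1 h and at 238.58 and 2337.63 TPM at 2 h.

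**Figure D4:**
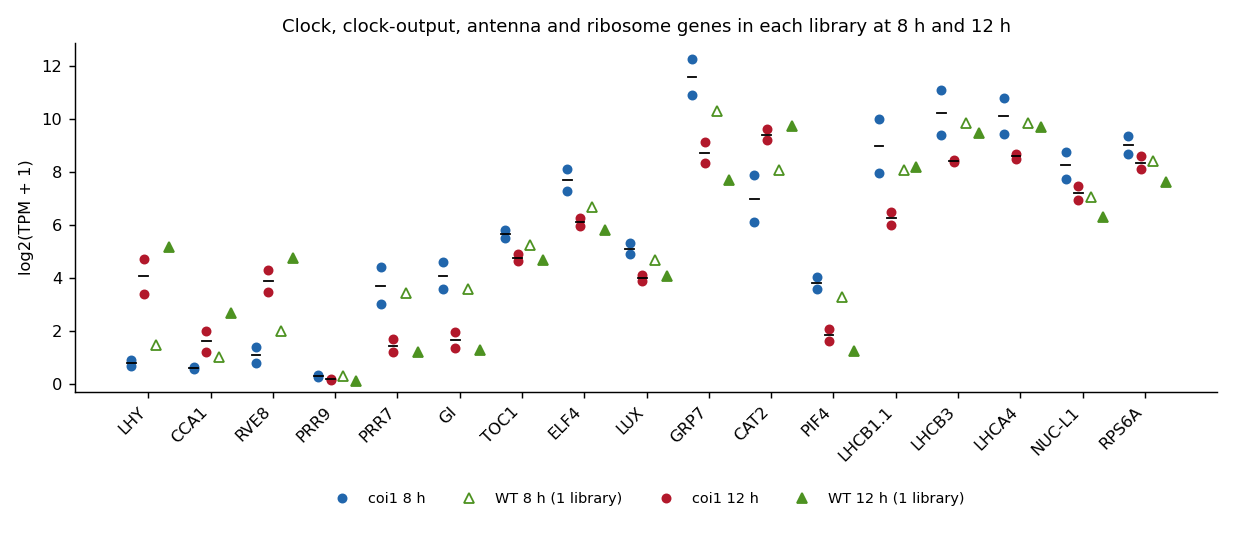
Level of each gene in every library at 8 h and 12 h, as log2(TPM + 1), drawn as circles for the 2 coi1 libraries per time (bar at their mean) and triangles for the single WT libraries. LHY and RVE8 are higher and PRR7, GI and GRP7 lower at 12 h in both genotypes, while LHCB1.1 is lower at 12 h in coi1 and nearly level in WT.

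B-box factors, zinc-finger proteins of light signalling, split by member. BBX31 was at 1.46 and 3.09 TPM and then at 15.65 and 25.60 TPM (2.73 ± 0.90, limma, adjusted p = 0.269), and BBX25 at 9.02 and 12.80 TPM and then at 36.17 and 53.95 TPM (1.94 ± 1.21, adjusted p = 0.619). BBX22 went the other way, at 29.84 and 16.43 TPM and then at 12.65 and 10.52 TPM. None of the 12 was called, 7 had both 12 h libraries above (27.1% of all genes) and 3 both below (27.3%), and the median was 0.61. BBX31 and BBX25 were called in the fit of the 6 libraries of 4 h, 8 h and 12 h.

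Antenna genes, which encode the light-harvesting chlorophyll proteins, were lower in part. LHCB1.1 (AT1G29920) was at 1018.65 and 250.78 TPM at 8 h and at 62.57 and 89.02 TPM at 12 h, and LHCB3 at 2180.87 and 670.47 TPM and then at 332.36 and 350.67 TPM. LHCA4 was at 1756.06 and 691.54 TPM and then at 359.93 and 412.52 TPM. The 8 h replicates of these genes differed more than the nearer libraries of the times did. LHCB1.1 (-2.74 ± 0.78), LHCB3 (-1.82 ± 0.48) and LHCA4 (-1.51 ± 0.40) did not pass (limma, adjusted p = 0.207, 0.191 and 0.191). Their errors come from the spread over all 16 coi1 libraries. LHCB2.3 was not lower, at 38.92 and 26.37 TPM and then at 46.44 and 76.14 TPM, and LHCA2 lay between 2289.38 and 2712.16 TPM. None of 17 was called, 10 had both 12 h libraries below both 8 h libraries (27.3% of all genes), and the median was -0.60, against 0.07 in the single WT libraries. Without 8 h replicate 2, LHCB3, LHB1B1, LHB1B2, LHCA1, LHCA3 and LHCA4 were called. LHCB1 genes are near copies, so the split of reads among them is uncertain. Calvin cycle genes had a median of 0.26 and none of 16 was called.

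Genes for making ribosomes were lower at 12 h and none passed. NUC-L1 (nucleolin) was at 435.02 and 210.84 TPM at 8 h and at 175.53 and 121.62 TPM at 12 h (-1.05 ± 0.30, limma, adjusted p = 0.207; 0.0446 without 8 h replicate 2, and up to 1 over the alternatives), and NOP56, of the snoRNA particles that modify ribosomal RNA, at 159.79 and 84.98 TPM and then at 65.79 and 48.35 TPM. All 10 ribosome biogenesis genes had both 12 h libraries below both 8 h libraries, as 27.3% of all genes did, with a median of -0.80 and no call. Of 17 cytosolic ribosomal protein genes 15 did so, with a median of -0.51, a range of -0.66 to -0.46 and no call. In the single WT libraries the medians were -0.58 and -0.72. Cell cycle lists were split: 13 of 18 genes of S phase and G1 had both 12 h libraries below both 8 h libraries (median -0.39), and all 14 measured mitosis genes had both above (median 0.26), as 27.1% of all genes did, with no call in either. CYCA1;1, a mitotic cyclin gene, was at 2.98 and 2.24 TPM and then at 3.46 and 3.48 TPM, and MCM3, of the replication helicase, at 12.82 and 7.51 TPM and then at 5.91 and 6.16 TPM.

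**Figure D5:**
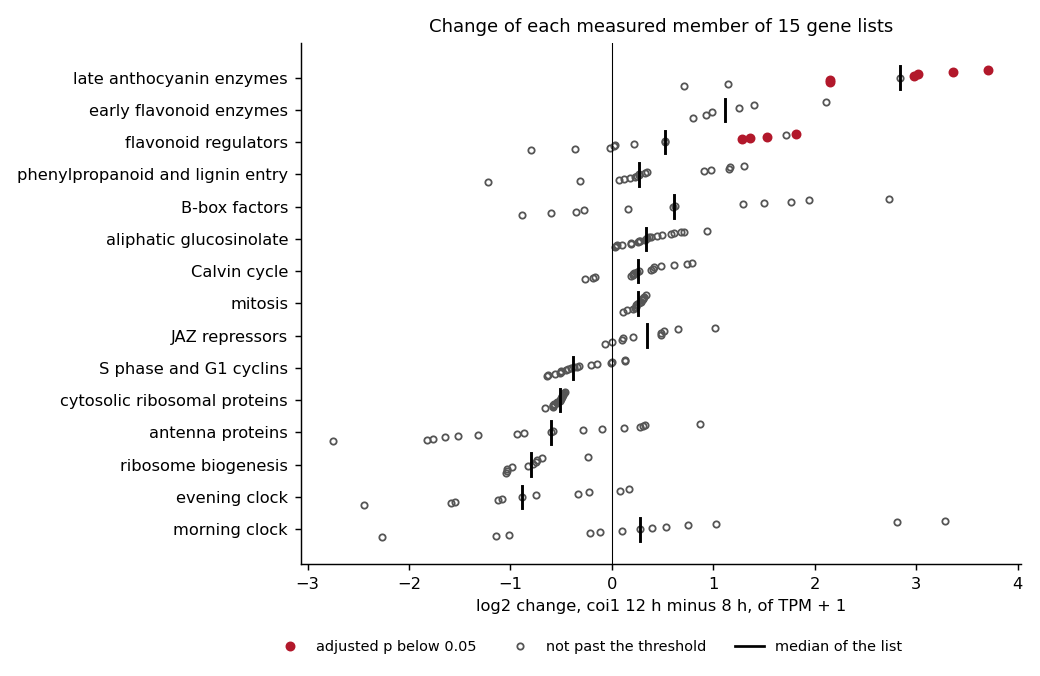
Change from 8 h to 12 h in coi1 (log2 of TPM + 1, horizontal axis) of every measured member of 15 gene lists, with a bar at each median. Called genes (red) are found among late anthocyanin enzymes and flavonoid regulators, both ribosomal lists lie wholly below 0 and the mitosis list wholly above it, with no called member.

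Jasmonate genes had no called member. JAZ9 was at 21.03 and 39.73 TPM and then at 54.87 and 64.70 TPM (1.02 ± 0.59, limma, adjusted p = 0.580), with 278.88 and 240.63 TPM in the WT libraries. AOC1, an allene oxide cyclase gene of jasmonate synthesis, was at 12.71 and 23.84 TPM and then at 42.00 and 37.72 TPM (1.14 ± 0.33, adjusted p = 0.214), with 172.34 and 251.57 TPM in WT. None of 13 synthesis genes, 10 measured JAZ genes and 14 measured response genes was called, with medians of 0.31, 0.35 and 0.0071. Of the root founder and root stem cell regulators 4 of 14 were measured and none was called; SCR lay between 13.30 and 20.20 TPM, and WOX11, which marks founder cells, did not exceed 0.19 TPM. TTG2, a WRKY gene of trichome and seed coat development, was at 0.78 and 1.02 TPM and then at 2.04 and 3.17 TPM (0.91 ± 0.19, adjusted p = 0.124). The 5 trichome markers summed to 3.56 and 3.96 TPM at 8 h and to 6.58 and 8.71 TPM at 12 h, with GL1 listed at 0 in all 4 libraries; 2 of the 4 measured markers had both 12 h libraries above both 8 h libraries (27.1% of all genes), and their part in the pigment results was not tested. Of 8 reference genes none was called: ACT2 lay between 470.82 and 543.50 TPM and PP2AA3 between 32.82 and 36.20 TPM, while EF1A was at 1954.14 and 1435.29 TPM at 8 h and at 1422.51 and 838.62 TPM at 12 h. Over all 51 lists, members of 3 lists were called.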

How the data were processed

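RNA of whole leaf explants was sequenced. Reads were trimmed, aligned and quantified by the authors against TAIR10, and the submitters' processing notes name RSEM 1.3.2, STAR 2.7.2b and Trim Galore 0.5.0; strand setting and annotation version are not given in the sources used here. The authors deposited TPM values for each gene in each library. RSEM shares reads between similar genes, so near copies are uncertain. Another 8 columns, numbered as replicate 2 of WT, matched no label and were not used, so WT has 1 library per time here. Names came from the TAIR10.1 RefSeq annotation (37390 of 37686 loci), as did promoter windows of 200 bases before the gene start; the files hold no coordinates.

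In R 4.3.3, limma 3.58.1 was fitted to log2(TPM + 1) of 16 coi1 libraries in 8 time groups (8 residual degrees of freedom) with a mean-variance trend, on genes of at least 1 TPM in at least 2 libraries, with Benjamini-Hochberg adjustment over 19323 genes and a threshold of 0.05. The fit was also run on simulated data, with no outcome given here. It takes a gene's spread as equal at all times, so genes near 0 before 8 h get a small error. Nothing says that replicates came from separate cultures, so p-values measure the spread between these samples, which may be technical.

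Genes were named by a rule: the 12 highest and 12 lowest changes among called protein-coding genes of at least 10 TPM, up to 4 called members per list (or up to 2 others), COI1, and clock, flavonoid and antenna genes of at least 10 TPM. The other called genes and further list members were chosen after their values were seen. Members and the 51 lists were chosen with earlier results of these data known. Of 650 list memberships 647 were used, since 3 loci stood under another symbol. Alternatives were another pseudocount, other filters, median-of-ratios rescaling, no trend, a replicate block, other sets of libraries and each library of 8 h, 12 h and 30 min left out. Of these, 3 (each 30 min library left out, and 6 libraries of 4 h, 8 h and 12 h) were added after seeing the data.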

Additional observations from a re-analysis of the deposited data

Results flagged for a closer look

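CSLA01 rose in coi1 and was lower in WT at 12 h than at 8 h, by -0.466 log2 units between the single WT libraries. 5MAT rose in coi1 and differed by -0.0274 log2 units in WT, which is close to no difference. In both genes each coi1 library of 12 h lay above each of 8 h; the difference between genotypes was not tested, as only 1 WT library per time was matched to a label.

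The WT library labelled 2 h, which no comparison uses, had LDOX at 546.84 TPM, against 1.95 TPM in the WT library of 1 h and 1.99 TPM in that of 4 h. Its DFR level was 555.66 TPM, its BOR5 level 169.88 TPM and its PIF4 level 0.92 TPM. For LDOX and DFR the WT libraries of 8 h and 12 h lie nearer to these values than those of 1 h and 4 h do, and for BOR5 and PIF4 that of 12 h lies nearest.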

How the results depend on the processing

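The 24 calls became 7 with a pseudocount of 0.1, 56 without a filter, 7 with a filter of 5 TPM and 1 with only the 4 libraries compared. They became 78 without t0 and 30 min and 104 with the 6 libraries of 4 h, 8 h and 12 h. They were 22 after rescaling and 29 without the trend. Single libraries were left out only at 8 h, 12 h and 30 min. Leaving out 1 library at a time gave 3 to 81. The late anthocyanin calls (6) became 2 with a pseudocount of 0.1, 3 with a filter of 5 TPM, 0 with 4 libraries, and 1 to 6 with 1 library left out. The regulator calls (4) became 0 with each of these 3 settings, 1 with the 6 libraries, and 0 to 4 with 1 library left out. The light signalling call (PIF4) became 0 with 4 libraries, and 0 to 1 with 1 library left out. Lists with a called member (3) became 0 with 4 libraries, 6 without t0 and 30 min, 9 with the 6 libraries, and 1 to 6 with 1 library left out. The filter of 5 TPM left 15 of the 24 genes tested, and leaving out a 12 h library left 16. No named gene that was called reversed its direction; for other changes of call the cause was not tested.

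With the replicate block, 18 genes were called, all among the 24; GSTF12, BETA-VPE, FRD3, AT5G48650 and, of the 3 lower, AT1G30820 and AT5G66960 were not. The numbers were not taken to pair the samples, since 7 of 28 pairs of times had replicate differences correlated above 0.1; at 8 h and 12 h the correlation was 0.225. Read depth is not held by TPM, so what depth limits is unknown.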

Other observations

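Values outside the called genes may be of use. GBSS1, the granule-bound starch synthase gene whose level follows the clock, was at 259.30 and 375.87 TPM at 8 h and at 1047.70 and 1420.81 TPM at 12 h (1.96 ± 1.5, SE; limma, adjusted p = 0.724), and at 475.53 and 990.40 TPM in WT. DRM1 and DRM2, dormancy-associated genes that mark sugar shortage, were at 51.56 and 48.65 TPM and at 17.68 and 11.13 TPM at 8 h, and at 18.04 and 20.68 TPM and at 2.69 and 2.22 TPM at 12 h, and neither passed (adjusted p = 0.773 and 0.691). All 3 were called in the fit of the 6 libraries of 4 h, 8 h and 12 h.

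IGMT2, an indole glucosinolate methyltransferase gene, was at 3.72, 6.74 and 4.95 TPM in the 8 h libraries and 12 h replicate 1, and at 43.84 TPM in 12 h replicate 2. WRKY40, a stress-response factor gene, was at 3.80, 7.67 and 4.43 TPM and at 24.53 TPM in the same order, so for both genes 12 h replicate 2 stood alone. AT3G07605, which was called with the 4 libraries alone, was listed at 0 in both 8 h libraries and both WT libraries of these times and was at 10.05 and 9.92 TPM at 12 h; it was also at 18.87 TPM in 4 h replicate 2 and was not called in the fit of 16 libraries (adjusted p = 0.162).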
